A study of Rattus norvegicus with 15 samples.

Results

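The chemokines that draw leukocytes to a hematoma were examined as 6 genes, taken by Ensembl ID: Ccl2 (ENSRNOG00000007159), Ccl3 (ENSRNOG00000011205), Ccl5 (ENSRNOG00000010906), Cxcl1 (ENSRNOG00000002802), Cxcl2 (ENSRNOG00000002792) and Cxcl10 (ENSRNOG00000022256). Of these 6 genes, 5 had a row among the 15094 genes of the count table, and Ccl5 was not analysed here. All 5 passed the filter on low counts, which kept 14963 genes. Cxcl2 passed it through 3 libraries with at least 10 counts, all from rats with hemorrhage and 1 of them far above the rest. Ccl3 and Cxcl1 also passed it only through libraries from rats with hemorrhage.

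Chemokines are small secreted proteins that form gradients along which white blood cells move from blood into injured tissue. In the CC family, Ccl2 attracts monocytes through the receptor Ccr2, Ccl3 attracts monocytes and other leukocytes, and Ccl5 attracts T cells and monocytes. In the CXC family, Cxcl1 and Cxcl2 attract neutrophils through Cxcr2, and Cxcl10, which interferons induce, attracts activated T cells through Cxcr3. Blood in the brain parenchyma is known to start such a response in microglia, astrocytes and vessel walls, and many of these genes are switched on by the transcription factor NF-kappaB.

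RNA came from brain tissue of Sprague-Dawley rats 72 h after modelling, with basal ganglia given as the source of the cells. Sham rats had the operation without hemorrhage, ICH rats had an intracerebral hemorrhage, and ICH_MA rats had the hemorrhage and then mithramycin A, a drug that binds GC-rich DNA and is known to block the transcription factor Sp1. The design gave each group 5 rats, and the libraries analysed, read as 1 rat each, were all 5 of Sham, 3 of ICH (replicates 1, 2 and 5) and 3 of ICH_MA (replicates 1 to 3). The sources used here do not give the way the hemorrhage was made, the dose and route of the drug, any vehicle, or the age and sex of the rats. Sham libraries held 56393423 to 67733469 counts, ICH libraries 58317912 to 65438000 and ICH_MA libraries 57164791 to 66381416. The identity of the tissue could not be checked on marker genes, because only the 6 chemokine IDs come with names. In whole tissue, more cells making a transcript and more transcript per cell cannot be told apart.

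RefSeq gene order (GRCr8) places Cxcl2 and Cxcl1 next to each other and Cxcl10 between Cxcl11 and Cxcl9, while Ccl3 lies between Ccl6 and Ccl4 and Ccl2 beside Ccl7. These clusters hold related genes, and reads from like stretches of Cxcl1, Cxcl2 and their relatives, or of Ccl3 and Ccl4, could be divided between them by the counting. Promoter sequence was found in RefSeq for 3 of the 6 genes, all of the CXC family. The 250 bases before the start of transcription are shown because NF-kappaB, interferon-induced factors and the drug-sensitive factor Sp1 are known to act there. The windows are chr14:17479322-17479571 (minus strand) for Cxcl1, chr14:17467256-17467505 (minus strand) for Cxcl2 and chr14:15988816-15989065 (plus strand) for Cxcl10, in GRCr8, which is another build than the mRatBN7.2 named for the counts. Capitals mark matches on either strand to 3 motifs chosen with the expression values known: the kappaB consensus, the GC box GGGCGG to which Sp1 binds, and GAAANNGAA, a core of the interferon-stimulated response element.
Cxcl1: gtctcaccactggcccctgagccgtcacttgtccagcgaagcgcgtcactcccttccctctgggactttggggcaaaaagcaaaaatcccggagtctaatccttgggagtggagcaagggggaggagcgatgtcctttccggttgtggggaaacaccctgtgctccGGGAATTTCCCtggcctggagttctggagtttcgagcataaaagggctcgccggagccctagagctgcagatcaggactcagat
Cxcl2: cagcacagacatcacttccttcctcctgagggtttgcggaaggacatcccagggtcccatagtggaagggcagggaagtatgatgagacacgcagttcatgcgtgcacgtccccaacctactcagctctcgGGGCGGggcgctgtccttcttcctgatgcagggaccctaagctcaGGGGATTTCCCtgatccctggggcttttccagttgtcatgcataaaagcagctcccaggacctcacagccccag
Cxcl10: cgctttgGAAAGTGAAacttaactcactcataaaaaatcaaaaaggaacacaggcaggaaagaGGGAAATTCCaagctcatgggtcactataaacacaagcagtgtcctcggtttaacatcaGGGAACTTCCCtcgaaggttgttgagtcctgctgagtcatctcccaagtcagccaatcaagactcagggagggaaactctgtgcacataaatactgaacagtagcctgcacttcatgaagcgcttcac

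All 3 windows held the kappaB consensus, which 6.33% of 33469 rat promoter windows of this length hold. It began 84 bases before the start in Cxcl1 and 74 bases before it in Cxcl2. Cxcl10 had it at 2 places, beginning 187 and 128 bases before the start. Both strands match at most of these places, and overlapping matches are counted as 1 place. The GC box was found in Cxcl2 alone of the 3, 119 bases before the start, and 30.5% of all windows hold it. The interferon motif was found in Cxcl10 alone, 243 bases before the start, against 8.12% of all windows. The 3 motifs did not overlap one another. A match describes the letters only.

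In ICH brain, 4 of the 5 chemokines rose against Sham and 1, Cxcl2, did not pass the test, where 15.0% of all 14963 genes rose (adjusted p below 0.05, quasi-likelihood test of edgeR). The rises in ICH ranged from about 5-fold for Cxcl10 to 54-fold for Ccl2. In ICH_MA brain the same number, 4 of 5, rose against Sham, again all but Cxcl2, where 5.00% of all genes rose. The Sham libraries are shared by these comparisons, and the third, between ICH_MA and ICH, uses libraries of each. Between ICH_MA and ICH, 0 of the 5 chemokines and 0% of all genes passed. Every ICH library lay above every Sham library for 4 of the 5 chemokines and for 15.2% of all genes, and every ICH_MA library did so for all 5 and for 11.8% of all genes. For Ccl3, Cxcl1 and Cxcl2 this separation is partly set by the filter, which these genes passed only through libraries with hemorrhage. The rises called for Ccl3 and Cxcl1 are partly set by the filter in the same way. For these genes the comparison with all genes is therefore not an even one. The median log2 fold change over the 5 was 5.38 in ICH and 4.27 in ICH_MA against Sham, where the median of all genes was 0.00 in both. The 5.38 is the fitted value of Cxcl2 itself, which had 0 counts in Sham and did not pass. With Cxcl2 set at its lower bound the medians over the 5 were 3.41 in ICH and 4.27 in ICH_MA.

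**Figure D1:**
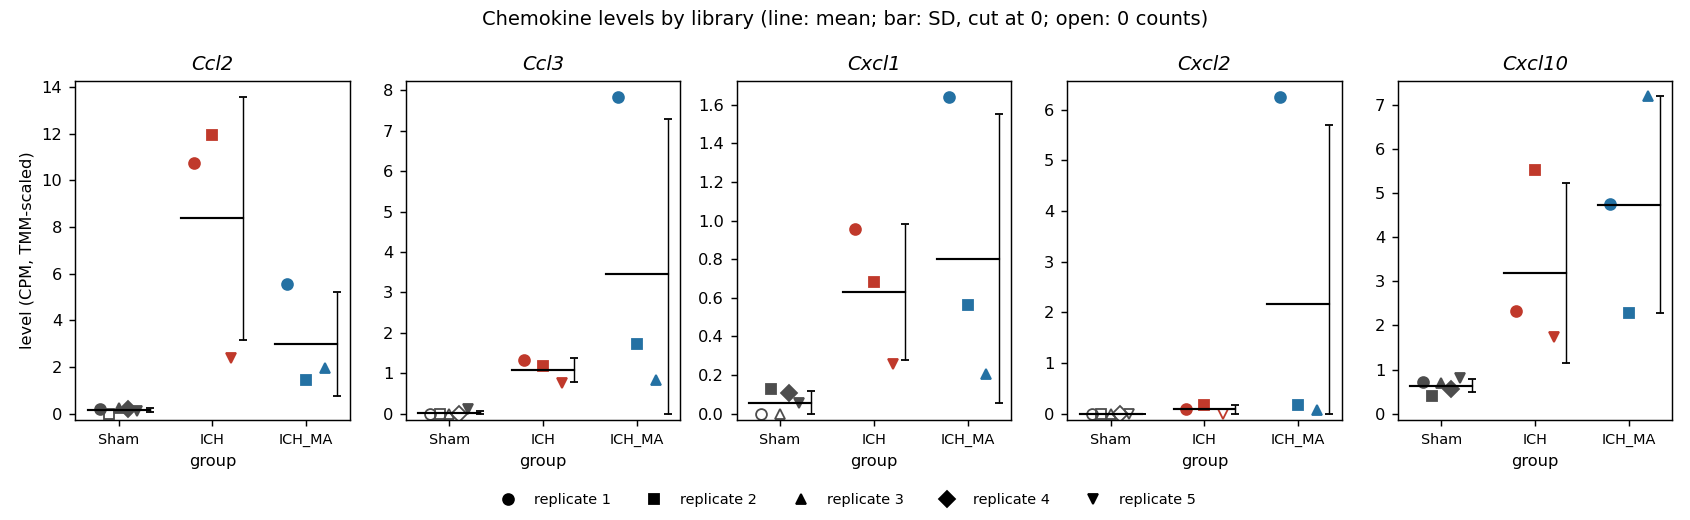
Level of each chemokine in CPM (counts scaled to library size, y axis, scale differing between panels) in the 5 Sham, 3 ICH and 3 ICH_MA libraries (x axis), with the group mean as a line, the SD as a bar cut at 0, marker shapes for replicate numbers and open markers for 0 counts. Sham libraries lie near 0 for all but Cxcl10, and ICH_MA replicate 1 is the highest library of all 11 for Ccl3, Cxcl1 and Cxcl2, at 7.84, 1.64 and 6.25 CPM.

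Ccl2, the monocyte attractant also called MCP-1, was at 0.194, 0, 0.256, 0.184 and 0.128 CPM in Sham replicates 1 to 5. CPM is the count scaled to library size, and it is not divided by gene length, so levels are compared between libraries and not between genes. In ICH replicates 1, 2 and 5, Ccl2 stood at 10.8, 12 and 2.41 CPM. Replicates 1 and 2 were close to each other, replicate 5 was the lowest of the 3, and all lay above every Sham library. The difference was 54-fold, a log2 fold change of 5.76 with SE 0.73 (95% interval 4.16 to 7.36, edgeR adjusted p = 0.000518). By size it was the 17th rise of 14963 genes, and the call held in all 19 alternatives run, which were other scalings, filters, tools and models and the omission of libraries.

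In ICH_MA replicates 1, 2 and 3, Ccl2 was at 5.56, 1.44 and 1.95 CPM. These lay above every Sham library, with a log2 fold change of 4.27 and SE 0.72 (edgeR adjusted p = 0.00702). The call was lost with limma-voom, and in the 19 alternatives adjusted p ranged from 4.45e-05 to 0.0929. Without ICH_MA replicate 1 the log2 fold change was 3.45. Against ICH the ICH_MA mean was lower, 2.98 ± 2.25 against 8.38 ± 5.2 CPM (SD, n = 3 each), but ICH_MA replicate 1 exceeded ICH replicate 5 and the groups overlapped. The log2 fold change of −1.49 had SE 0.7 and a 95% interval of −3.03 to 0.05 (edgeR adjusted p = 0.339). With both ICH replicate 5 and ICH_MA replicate 1 left out, a choice made after the values were seen, it was −2.74 (edgeR adjusted p = 0.0347, 2 against 2 libraries). With only ICH replicate 5 or only ICH_MA replicate 1 left out it did not pass, at edgeR adjusted p = 0.089 and 0.293.

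Ccl3, also called MIP-1 alpha and made largely by activated microglia and macrophages, had 0 counts in Sham replicates 1 to 4 and 6 counts (0.109 CPM) in Sham replicate 5. A count of 0 allows a level of up to 0.0448 to 0.0481 CPM in those 4 libraries (3 counts, counting error only). In ICH replicates 1, 2 and 5, Ccl3 stood at 1.32, 1.18 and 0.757 CPM, all above Sham and within 1.75-fold of each other, the narrowest spread among the chemokines in ICH. The rise was 50.5-fold, with a log2 fold change of 5.66 and SE 1.04 (95% interval 3.38 to 7.94, edgeR adjusted p = 0.00316). It rests on 6 Sham counts in 1 library. The log2 fold change ranged from 5.15 to 9.09 over the alternatives, all of which kept the call, and the 9.09 came without Sham replicate 5, where Sham is at 0 counts and a fitted value is no bound.

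In ICH_MA replicates 1, 2 and 3, Ccl3 was at 7.84, 1.74 and 0.822 CPM. Replicate 1 was 4.52-fold above replicate 2, and the other two lay near the ICH range. Against Sham the log2 fold change was 7.33 (SE 1.02; adjusted p = 0.00282 in edgeR), and it passed in all 19 alternatives. It was 5.89 without ICH_MA replicate 1, and 10.77, no bound for the same reason, without Sham replicate 5. Against ICH it was 1.67 with SE 0.83 (95% interval −0.16 to 3.5, edgeR adjusted p = 0.362). Without ICH_MA replicate 1 it was 0.23 (edgeR adjusted p = 0.922). The mean of the other two ICH_MA libraries was 1.28 ± 0.646 CPM (SD, n = 2), beside 1.09 ± 0.294 CPM in ICH (SD, n = 3).

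Cxcl1, the neutrophil attractant first described in the rat as CINC-1, was low throughout. Sham replicates 1 to 5 held 0, 8, 0, 7 and 3 counts, a mean of 0.0576 ± 0.0587 CPM (SD, n = 5). ICH replicates 1, 2 and 5 held 57, 41 and 17 counts, or 0.954, 0.681 and 0.257 CPM. The ICH libraries did not overlap with Sham, and the log2 fold change was 3.41 with SE 0.88 (95% interval 1.48 to 5.34, edgeR adjusted p = 0.0169). Without ICH replicate 1 the call was lost (log2 fold change 2.98, edgeR adjusted p = 0.0736).

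ICH_MA replicates 1, 2 and 3 held 100, 32 and 14 counts of Cxcl1, or 1.64, 0.561 and 0.206 CPM, all above Sham. The log2 fold change against Sham was 3.75 (SE 0.87; adjusted p = 0.028 in edgeR). This call was lost in 8 of 19 alternatives, with adjusted p from 0.00272 to 0.136. It was lost without Sham replicate 3, 4 or 5 and without ICH_MA replicate 1 or 2. Without ICH_MA replicate 1 the log2 fold change was 2.68 (edgeR adjusted p = 0.121). The ICH and ICH_MA libraries overlapped, with a log2 fold change of 0.35 and SE 0.84 (95% interval −1.49 to 2.18, edgeR adjusted p = 0.883). Its sign turned, to −0.72, when ICH_MA replicate 1 was left out, and to −0.03 without ICH replicate 5.

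Cxcl2, also called MIP-2 and the close relative of Cxcl1, had 0 counts in all 5 Sham libraries. The 5 Sham libraries together allow a level of up to 0.00959 CPM (3 counts over the group). ICH replicates 1, 2 and 5 held 5, 10 and 0 counts, and ICH_MA replicates 1, 2 and 3 held 381, 10 and 5 counts. In CPM the ICH libraries were at 0.0837, 0.166 and 0, and the ICH_MA libraries at 6.25, 0.175 and 0.0734. ICH_MA replicate 1 held most of the Cxcl2 counts of the table and stood 35.6-fold above the next ICH_MA library.

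The mean Cxcl2 level was at least 8.69-fold higher in ICH than the Sham limit and did not pass the test (edgeR adjusted p = 0.297). In ICH_MA it was at least 226-fold higher with all 3 libraries and at least 13-fold higher without replicate 1. With all libraries it missed the threshold (edgeR adjusted p = 0.0512), and over 17 alternatives adjusted p ran from 0.038 to 0.233, passing in 3 of them: without ICH replicate 5, without ICH_MA replicate 3, and without both ICH replicate 5 and ICH_MA replicate 1. The last of these also passed for ICH against Sham (edgeR adjusted p = 0.0129). The mean in ICH_MA was 2.17 ± 3.54 CPM and in ICH 0.0833 ± 0.083 CPM (SD, n = 3 each), a log2 fold change of 4.69 (SE 1.81; adjusted p = 0.285 in edgeR, unadjusted p = 0.0347). Without ICH_MA replicate 1 it was 0.57 (edgeR adjusted p = 0.863), and without both that library and ICH replicate 5 it was −0.03.

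Cxcl10, the interferon-induced attractant of activated T cells, had counts in all 11 libraries, with 26 to 48 in Sham. Its Sham levels were 0.717, 0.409, 0.689, 0.553 and 0.802 CPM. ICH replicates 1, 2 and 5 stood at 2.33, 5.51 and 1.73 CPM, all above Sham, with replicate 2 highest. The rise was 5.02-fold, a log2 fold change of 2.33 with SE 0.43 (95% interval 1.39 to 3.27, edgeR adjusted p = 0.00312), and all 19 alternatives kept it. Without ICH replicate 2 the log2 fold change was 1.67.

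In ICH_MA replicates 1, 2 and 3, Cxcl10 was at 4.74, 2.28 and 7.19 CPM, so that replicate 3, the lowest of its group for Ccl3, Cxcl1 and Cxcl2, was here the highest of all libraries. The log2 fold change against Sham was 2.9 (SE 0.43; adjusted p = 0.0039 in edgeR). It held in 18 of 19 alternatives. Against ICH it was 0.57 with SE 0.47 (95% interval −0.45 to 1.6, edgeR adjusted p = 0.586), and the groups overlapped.

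**Figure D2:**
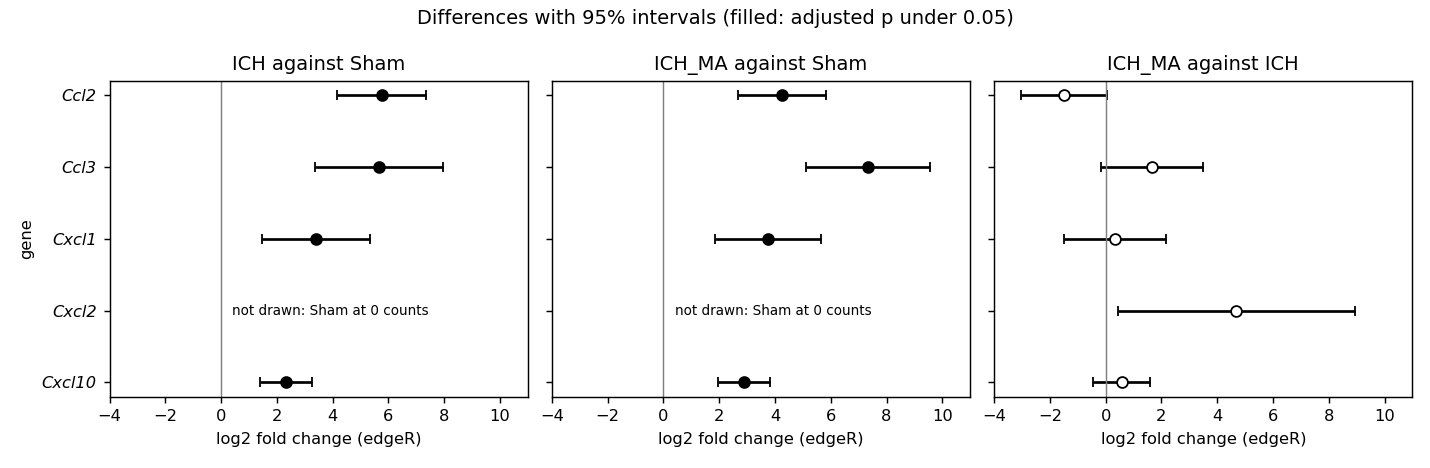
Log2 fold changes from edgeR (x axis) with 95% intervals for each chemokine (y axis) in the 3 comparisons, filled where adjusted p was under 0.05. Ccl2, Ccl3, Cxcl1 and Cxcl10 are filled in both comparisons with Sham and all markers are open in ICH_MA against ICH; Cxcl2 against Sham is not drawn because Sham had 0 counts.

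With 0 of 14963 genes called between ICH_MA and ICH by edgeR, 2318 had an unadjusted p under 0.05. DESeq2 called 477 genes and limma-voom 0. No chemokine was among the DESeq2 calls, and DESeq2 gave Cxcl2 no adjusted p. The intervals of the 5 chemokines were wide: the median SE was 0.83, against 0.12 over all genes. For Ccl2 the interval reached from a log2 fold change of −3.03 to 0.05. The chemokines also varied more between libraries than most genes. Within ICH_MA the SD of log2 CPM was 3.16 for Cxcl2, 1.63 for Ccl3, 1.41 for Cxcl1, 1.01 for Ccl2 and 0.83 for Cxcl10, where the median gene had 0.11. At least 98.4% of genes varied less than each of these. Low counts alone widen such a spread, and genes of like level were not compared.

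ICH_MA replicate 1 was the highest ICH_MA library for all but Cxcl10. For Cxcl2 it stood 4.92 log2 units above the next highest of the other 5 ICH and ICH_MA libraries, the largest such gap among the 14963 genes. That next library held 10 counts, and Cxcl2 passed the filter partly through ICH_MA replicate 1. Genes high in that library alone were filtered out, so this rank is partly set by the filter. The gap of Ccl3 was 2.15 and ranked 4th, and that of Cxcl1 was 0.76 and ranked 26th. Ccl2 and Cxcl10 showed none, since other libraries were higher. Only 16 genes (0.107%) were more than 2-fold above all the other 5 libraries in ICH_MA replicate 1, and 2 of them were chemokines. In the other 5 libraries 10 to 36 genes were, and 0 were chemokines. This count was made after the values were seen. ICH replicate 5 was the lowest of the 6 for Cxcl2 (0 counts), Ccl3 and Cxcl10, and the lowest ICH library for all 5.

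**Figure D3:**
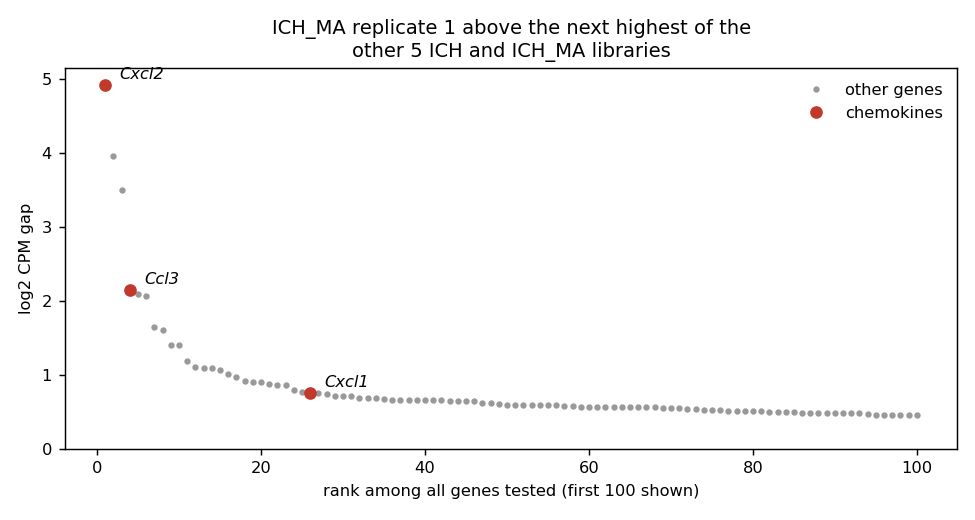
Gap in log2 CPM (y axis) between ICH_MA replicate 1 and the next highest of the other 5 ICH and ICH_MA libraries, for the 100 genes with the largest gap, by rank (x axis). Among the genes that passed the filter, Cxcl2 has the largest gap at 4.92, Ccl3 ranks 4th at 2.15 and Cxcl1 26th at 0.76.

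The make-up of the chemokine counts was compared as each gene's share of the 5 together. A Sham library held 34 to 61 counts of these genes, an ICH library 340 to 1174 and an ICH_MA library 353 to 1587. Their summed level was 0.866 ± 0.207 CPM in Sham (SD, n = 5), 13.4 ± 7.4 CPM in ICH and 14.2 ± 10.5 CPM in ICH_MA (SD, n = 3 each). Without ICH_MA replicate 1 the ICH_MA mean was 8.22 ± 2.87 CPM (SD, n = 2). In Sham, Cxcl10 took 65.5% to 78.7% of these counts. In ICH, Ccl2 took 69.7%, 61.3% and 46.8% in replicates 1, 2 and 5. In ICH_MA, Ccl2 took 21.4%, 23.2% and 19.1%, and the groups did not overlap. Ccl3 took 30.1% and 28% in ICH_MA replicates 1 and 2 and 8.02% in replicate 3, where Cxcl10 took 70.2%. Cxcl2 took 24% in ICH_MA replicate 1 and at most 2.83% in any other library. These shares depend on gene length as well as on level, and only their differences between libraries are compared. That the Ccl2 shares did not overlap was noticed after the values were seen, and how often other genes would separate so was not counted. In CPM the Ccl2 levels of ICH and ICH_MA overlapped, and a share also moves with the other genes of the sum.

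**Figure D4:**
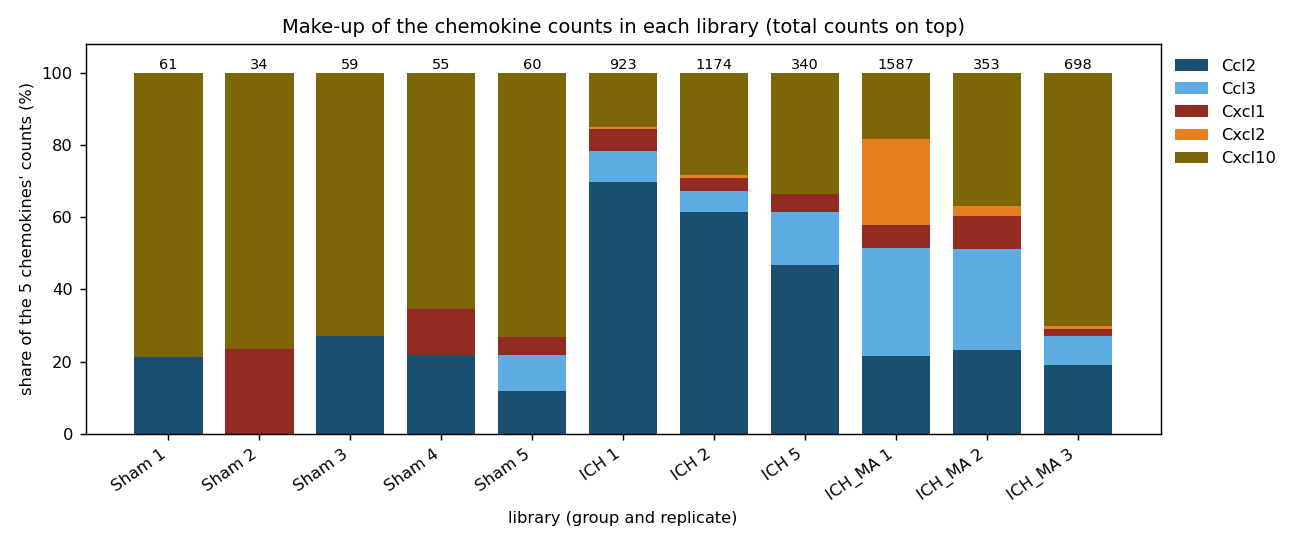
Share of the counts of the 5 chemokines taken by each gene (y axis, percent) in the 11 libraries (x axis), with the total of their counts on top of each bar. Cxcl10 fills most of each Sham bar, Ccl2 takes 46.8% to 69.7% of the ICH bars, and Ccl2 takes 19.1% to 23.2% of the ICH_MA bars.

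Ratios of counts within a library need no scaling. There were 8.14, 10.1 and 3.18 Ccl2 counts per Ccl3 count in ICH replicates 1, 2 and 5, and 0.709, 0.828 and 2.38 in ICH_MA replicates 1, 2 and 3. Per Cxcl10 count there were 4.63, 2.17 and 1.39 Ccl2 counts in ICH and 1.17, 0.631 and 0.271 in ICH_MA. The groups did not overlap in either ratio. Per Cxcl1 count, the values were 11.3, 17.6 and 9.35 in ICH and 3.39, 2.56 and 9.5 in ICH_MA, which overlapped. With 2 added to each count, 6 of the 10 pairs of chemokines did not overlap between ICH and ICH_MA. These were all 4 pairs with Ccl2 and the ratio of Cxcl1 to Cxcl2, higher in ICH, and the ratio of Ccl3 to Cxcl1, lower in ICH. The pairs share genes, and Cxcl2 had 0 counts in ICH replicate 5. Ccl2 to Cxcl1 was apart only with the added count, at 8.47 in ICH replicate 5 and 8.44 in ICH_MA replicate 3. How many pairs of other genes would separate was not counted, so the 6 cannot be read as particular to chemokines. These ratios were picked out after the values were seen, and with 3 against 3 libraries an exact two-sided permutation test cannot go below 0.1.

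Whether the chemokines rose by unequal amounts was tested on the 6 libraries with hemorrhage, ICH and ICH_MA together, against the 5 Sham libraries. Each p is thus for a mixture of untreated and drug-treated rats. The ratios of Ccl2 to Cxcl10 and of Ccl3 to Cxcl1 did not overlap between these 2 groups. For each of 10 pairs of genes the log2 ratio of counts, each with 2 added, was compared by an exact two-sided permutation test. After adjustment over the 10 pairs, 4 ratios passed, 3 of them with Ccl3. How many pairs of other genes would pass was not counted, so the 4 cannot be read as particular to chemokines. Ccl3 passed the filter only through libraries with hemorrhage, so a rise of its ratio to Cxcl10 is partly set by the filter. The ratio of Ccl3 to Cxcl10 went from −3.94 ± 0.85 (log2, SD, n = 5) to −1.15 ± 1.34 (SD, n = 6), a difference of 2.79 (exact permutation p = 0.00866, adjusted p = 0.0289). The ratio of Ccl2 to Cxcl10 rose by 2.38 (exact permutation p = 0.0173, adjusted p = 0.0433). The ratio of Ccl3 to Cxcl1 rose by 2.15 (exact permutation adjusted p = 0.0289). The ratio of Ccl3 to Cxcl2 also passed, but with Cxcl2 at 0 counts in Sham its Sham value is set by the added count, and it does not show which of these genes rose more. Ccl3 was itself at 0 counts in all Sham libraries but replicate 5, and Cxcl1 in Sham replicates 1 and 3. The Sham ratios of Ccl3 to Cxcl10 and to Cxcl1 therefore also depend largely on the added count. The ratio of Ccl2 to Ccl3 differed by −0.41 (exact permutation adjusted p = 0.801). The calls depended on the added count: adding 0.5 in place of 2 left 0 of the 4, and adding 5 left 2. Leaving out 1 library gave 0 to 4 pairs, 0 for each library but Sham replicate 5 (3 pairs) and ICH_MA replicate 3 (4 pairs). In ICH alone 0 pairs passed. The smallest exact permutation p that 3 against 5 libraries can give is 0.0357 before adjustment. No pair could therefore pass unless most of the 10 pairs reached that p.

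**Figure D5:**
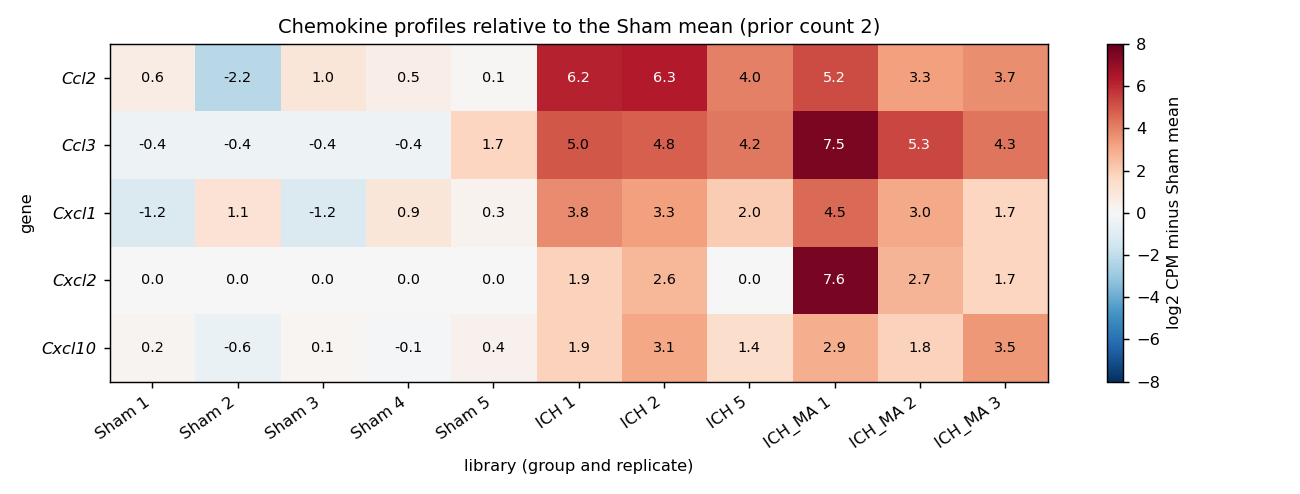
Log2 CPM of each chemokine (y axis) in each of the 11 libraries (x axis) minus its Sham mean, with a prior count of 2, colored from blue (lower) to red (higher). The 2 darkest red cells, 7.61 for Cxcl2 and 7.51 for Ccl3, are both in ICH_MA replicate 1, and the 6 libraries with hemorrhage are at or above the Sham mean for all 5 genes. For Cxcl2 the Sham mean is 0 counts and its values depend on the prior count.

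Among themselves, the chemokines were compared by the mean absolute difference of these profiles over the 11 libraries. Cxcl2 was left out, because its Sham level of 0 counts makes its distances a matter of the prior count, and 4 of 5 Sham libraries were at 0 for Ccl3 too. Among the other 4 genes, Cxcl1 and Cxcl10 were nearest, at 1.17 log2 units, and Ccl3 and Cxcl10 farthest, at 1.78. Ccl2 and Ccl3 were 1.32 apart. Outside the list, the gene nearest to the mean profile of all 5, which holds the same dependence on the prior, was ENSRNOG00000037563, at 0.48 log2 units, where the median gene was at 2.12. It was at 1.06 to 1.4 CPM in Sham, at 23.7, 18.8 and 6.46 CPM in ICH replicates 1, 2 and 5, and at 14, 8.24 and 4.57 CPM in ICH_MA replicates 1, 2 and 3. Its order of ICH libraries was that of Ccl3 and Cxcl1. Within ICH_MA it was highest in replicate 1, as they were, but its highest library of all was ICH replicate 1. The next was ENSRNOG00000014378, at 0.52, with 0, 0, 7, 0 and 0 counts in Sham replicates 1 to 5, 21, 29 and 10 counts in ICH and 129, 17 and 16 counts in ICH_MA replicates 1, 2 and 3. Like Cxcl2 and Ccl3 it was highest in ICH_MA replicate 1. No table used here pairs these IDs with names.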

How the data were processed

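RNA was sequenced from rat brain, and the authors deposited whole-number counts per gene without normalization, per the file headers and values. The build mRatBN7.2 and, as tools, RSEM 1.3.1, Bowtie2 and DESeq2 1.4.5 are named in the submitters' processing notes. The sources used here do not give their roles, the annotation, the use of strand or any rounding. Of 15 labelled samples, 11 had a column, matched by library name. The members and lists were chosen with earlier results of these data known.

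Genes were filtered with filterByExpr (minimum count 10, minimum total 15), scaled by TMM and tested with edgeR 4.0.16 (quasi-likelihood F test, R 4.3.3) on all 11 libraries, with a coefficient for each group. The Benjamini-Hochberg adjustment covered all 14963 genes. Intervals are 95%, and the prior count for log2 CPM was 2. Floors of 3 counts cover counting error only. The test was also run on simulated counts, with the changed genes drawn at random from all genes tested. The outcome is not given here, and it does not bear on genes without counts in a group, such as Cxcl2 in Sham. Alternatives were RLE size factors, DESeq2 1.42.0, limma-voom (limma 3.58.1), no filter, only the groups compared, a replicate block and each library left out, plus a robust spread and 2 libraries left out, both added after the data were seen.

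The genes named were the 6 chemokines and the 2 other genes nearest to their mean profile. Lists of receptors, other chemokines, inducers and cell type markers could not be tested, since 0 of 15094 IDs matched a symbol in the reference. Promoters came from RefSeq GRCr8 by symbol.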

Additional observations from a re-analysis of the deposited data

Results flagged for a closer look

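Ccl3 in Sham replicate 5 was at 0.109 CPM (6 counts), and the other 4 Sham libraries were at 0 counts. The gap to the next library was the whole range of the group, a ratio of 1 where 0.71 is the critical value for 5 libraries. With 4 libraries tied at 0 counts this ratio would be 1 for any count in the fifth, so it says nothing about how unusual 6 counts are, and the usual chance rate of about 1 in 20 groups does not apply. Without this library the rise of Ccl3 in ICH kept its call.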

How the results depend on the processing

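The calls of Ccl2, Ccl3 and Cxcl10 in ICH against Sham held in all 19 alternatives, as did that of Ccl3 in ICH_MA against Sham, and no called fold change turned its sign. Over all genes, the number changed in ICH against Sham was 3662, with 1914 under the replicate block and 1992 to 4484 with 1 library left out (1992 without ICH replicate 1, 2231 without ICH replicate 2). For ICH_MA against ICH it was 0, with 477 by DESeq2, 793 without both ICH replicate 5 and ICH_MA replicate 1, and 0 to 1137 with 1 library left out (1137 without ICH replicate 5). For ICH_MA against Sham it was 998 (748 higher), with 1830 by DESeq2 (1130 higher), 1541 with only these groups in the model, 117 under the replicate block and 348 to 1575 with 1 library left out (348, 459 and 506 without ICH_MA replicates 2, 1 and 3, 545 to 577 without Sham replicate 2, 3, 4 or 5, and 1575 without ICH replicate 5). Chemokine pairs with unequal change numbered 4, with 0 at a prior of 0.5, 2 at a prior of 5, 0 in ICH alone (smallest exact permutation p there 0.0357 before adjustment, so this 0 says little), and 0 to 4 with 1 library left out. The cause was not tested.

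Same-numbered libraries did not deviate together: 0 of 8 pairs correlated above 0.1 (−0.156 to 0.0853), and 1 of 10 libraries correlated best with its own number. No pairing by number was seen, but so few libraries cannot exclude a weak one. With the replicate block, adjusted p was 0.0546 for Cxcl1 in ICH and 0.0929, 0.136 and 0.105 for Ccl2, Cxcl1 and Cxcl10 in ICH_MA against Sham (edgeR). With only 2 groups in the model Cxcl2 fell under the filter against Sham and had no value. Low counts limit Ccl3, Cxcl1 and Cxcl2, which had at most 10 counts in each Sham library.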
